A study of Homo sapiens with 4 samples.

Results

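The genes described here build, crosslink and remodel the extracellular matrix and are not collagens. They are 49 of the 16878 genes in the expression tables, chosen by symbol from their known function, with earlier results of these data known. The choice already named a fall of SPARC and a rise of COL1A1 in the comparison of siSIRT1 with Control. RNA was sequenced from PANC-1, an established human pancreatic ductal carcinoma cell line, 48 h after transfection. The labels give 2 Control libraries and 2 siSIRT1 libraries, the latter from cells given small interfering RNA against SIRT1, an NAD-dependent protein deacetylase. All 4 libraries come from this cell line, the control transfection is named as Control only, and a single siRNA sequence against SIRT1 is listed by the study. The labels do not tie the libraries to separate cultures, so p-values measure the spread between these libraries, which may be technical.

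The matrix outside a cell is a mesh of collagens bound by glycoproteins and proteoglycans. Glycoproteins such as SPARC, tenascin and thrombospondin mostly tune how cells attach, while perlecan, agrin and nidogen are parts of the basement membrane under an epithelium. Lysyl hydroxylases and lysyl oxidases modify and crosslink collagen, metalloproteinases and the plasminogen activator system degrade the mesh, and TIMPs and serpins restrain the proteases. In pancreatic ductal carcinoma a dense matrix surrounds the tumour cells, much of it made by stromal fibroblasts, which a cultured cell line lacks.

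Each library listed all 16878 genes and reached at least 1 FPKM (fragments scaled to transcript length and to the mapped fragments of the library) in 12123 to 12171 of them, at an estimated depth of 8740000 to 9160000 reads. SIRT1 was at 10.5 and 10.2 FPKM in Control against 1.80 and 2.05 FPKM in siSIRT1 (log2 fold change -1.96 ± 0.11 SE, adjusted p = 1.33e-05). Of 5 markers fixed for PANC-1, KRT8, KRT18, KRT19 and VIM lay between 313 and 2745 FPKM and KRT7 between 2.89 and 4.04 FPKM. VIM, vimentin, fell from 2198 and 2049 FPKM to 1503 and 1427 FPKM (log2 fold change -0.53, adjusted p = 0.00126, but 0.0953 without Control replicate 1). The keratins KRT18 and KRT19 rose (log2 fold changes 0.26 and 0.25, adjusted p = 0.0350 and 0.0178). Both calls were lost under median-of-ratios and upper-quartile scaling, without the filter on low values, without the variance trend and without either Control library. KRT8 did not pass (log2 fold change 0.25, adjusted p = 0.0513), and neither did KRT7, whose mean was lower (log2 fold change -0.10, adjusted p = 0.647). KRT8 was called, however, with a pseudocount of 0.1, at a mean of at least 5 FPKM and with a replicate block. Quantile normalization and scaling to equal FPKM sums called it too. Of 8 fibroblast markers 7 were listed and 2 reached 1 FPKM, COL3A1 and THY1, with FAP at 0 in every library and DCN and LUM at 0.10 FPKM or less. The summed fibroblast list was 9.01 and 7.57 FPKM in Control against 28.2 and 27.9 FPKM in siSIRT1. Its rise came from COL3A1 (4.08 and 4.04 FPKM to 18.9 and 19.4 FPKM) and THY1 (4.09 and 2.81 FPKM to 8.71 and 8.07 FPKM) alone. PDGFRB and ACTA2 stayed at 0.72 FPKM or less with overlapping groups, and their means were lower in siSIRT1. No endothelial marker of 4 reached 1 FPKM, with sums of 0.89 to 1.20 FPKM, and 3 of 4 leukocyte markers were listed, with sums of 69.3 and 67.5 FPKM in Control against 47.8 and 43.6 FPKM in siSIRT1, mostly CD68. The part of these marker shifts in the results below was not tested. In bulk RNA, fewer cells of a kind and less RNA per cell cannot be told apart.

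Promoter sequences are shown for SPARC and for 4 of the 6 other genes that changed by more than 2-fold, TNC, HSPG2, THBS1 and LOXL4, so that genes that moved in opposite directions can be read side by side. Each is the 250 bases before the RefSeq start of the gene (GRCh38.p14), printed 5′ to 3′ on the gene's strand: SPARC at chr5:151686916-151687165 on the minus strand, TNC at chr9:115118158-115118407 minus, HSPG2 at chr1:21937311-21937560 minus, THBS1 at chr15:39580829-39581078 plus and LOXL4 at chr10:98268195-98268444 minus. Capitals mark matches on either strand to the letters searched, which were TGANTCA for the AP-1 site, GGAATG for the TEAD site, GGGCGG for the GC box, TATAAA for the TATA box and ACGTG for the core of the hypoxia response element.
SPARC: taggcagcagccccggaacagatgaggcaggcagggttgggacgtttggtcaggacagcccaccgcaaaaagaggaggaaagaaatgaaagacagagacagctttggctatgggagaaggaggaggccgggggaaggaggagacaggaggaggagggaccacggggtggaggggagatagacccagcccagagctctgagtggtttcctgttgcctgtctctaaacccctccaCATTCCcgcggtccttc
TNC: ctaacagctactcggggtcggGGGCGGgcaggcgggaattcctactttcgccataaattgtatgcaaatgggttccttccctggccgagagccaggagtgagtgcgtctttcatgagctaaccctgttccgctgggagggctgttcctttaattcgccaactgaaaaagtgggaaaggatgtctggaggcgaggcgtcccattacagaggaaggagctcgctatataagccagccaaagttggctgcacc
HSPG2: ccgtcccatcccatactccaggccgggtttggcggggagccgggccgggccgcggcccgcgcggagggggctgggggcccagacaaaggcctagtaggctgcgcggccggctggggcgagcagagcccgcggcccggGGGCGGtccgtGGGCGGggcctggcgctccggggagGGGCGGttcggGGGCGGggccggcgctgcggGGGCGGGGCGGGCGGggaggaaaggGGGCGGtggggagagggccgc
THBS1: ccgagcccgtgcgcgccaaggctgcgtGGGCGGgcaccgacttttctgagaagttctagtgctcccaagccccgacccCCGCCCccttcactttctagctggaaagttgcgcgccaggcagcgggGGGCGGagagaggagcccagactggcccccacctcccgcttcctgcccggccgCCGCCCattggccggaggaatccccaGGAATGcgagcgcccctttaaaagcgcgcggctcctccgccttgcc
LOXL4: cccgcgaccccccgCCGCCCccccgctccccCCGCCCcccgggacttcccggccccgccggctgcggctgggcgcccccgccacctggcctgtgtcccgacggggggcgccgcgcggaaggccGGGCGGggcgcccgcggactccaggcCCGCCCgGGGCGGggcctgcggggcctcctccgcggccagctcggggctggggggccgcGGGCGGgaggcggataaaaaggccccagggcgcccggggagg

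In these windows SPARC held 1 match to GGAATG, near its start site, and none to GGGCGG, whereas HSPG2 and LOXL4 held runs of GGGCGG. THBS1 held both letters. Of the genes past 2-fold that are not shown, TGM2 had no promoter entry, and MMP7 had a smaller log2 fold change than the rises shown. Among the 11 promoters of genes that rose, MMP7 alone held TGANTCA, and it alone held TATAAA. Of the 49 genes, 36 had a promoter entry, and 27 of these, 75.0%, held GGGCGG against 42.3% of all 27305 promoters. GGGCGG was present in 9 of the 11 promoters of genes that rose and in 5 of the 8 of genes that were lower, SPARC counted among the latter. The other letters were found in 11.1% of the 36 promoters for TGANTCA (6.6% of all promoters), 11.1% for GGAATG (11.9%), 8.33% for TATAAA (11.1%) and 16.7% for ACGTG (18.7%). The median GC content of the 36 windows was 69.4% against 58.0% for all promoters, 69.2% for the 11 genes that rose and 68.6% for the 8 that were lower. GGGCGG consists of G and C only, so its share moves with that GC content. A match describes the letters and does not show that a factor binds there.

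Several of these transcripts also carry letters that pair with the siRNA itself. The siRNA is listed as gugucaugguuccuuugca, and its 19 bases were found whole in 1 canonical transcript, SIRT1. Its antisense strand is uGCAAAGGaaccaugacac, with bases 2 to 8, the seed, in capitals. The paired letters CCTTTGC occurred in the 3′ UTR of 1866 of 11933 tested genes (15.6%) and of 5 of the 35 tested matrix genes (14.3%), namely SPARC, THBS1, SDC2, TGM2 and PLAUR. The sites of 3 of them are shown with 10 bases on each side (GENCODE release 44 transcripts on GRCh37), since these genes lie at both ends of the range of change described below.
SPARC: caaatgcaaaCCTTTGCaaacacatta
THBS1: agtcataagcCCTTTGCagtgcaagtc
TGM2: ccactcacccCCTTTGCtgtgaggaat

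SPARC was far lower in siSIRT1, whereas THBS1 and TGM2 were higher. Matches fell in 3 of the 15 genes that rose, in 1 of the 11 that were lower with SPARC counted, and in 1 of the 9 that did not pass the test. Whether the siRNA acts on any of these sites was not tested.

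Most of the expressed matrix genes differed between siSIRT1 and Control, in both directions. A mean of at least 1 FPKM was reached by 35 of the 49 genes, and of the 34 other than SPARC, 25 passed the test (limma, Benjamini-Hochberg adjusted p under 0.05), 15 higher and 10 lower. This is 73.5%, beside 37.1% of all 12191 genes tested (24.0% higher and 13.1% lower). Among genes that averaged 5 FPKM or more, 20 of 27 matrix genes passed, beside 44.1% of all 8784. The 49 genes were proposed with earlier results of this comparison known, so these counts are a description and no test of the list. The levels of the groups did not overlap for 30 of the 34, against 69.0% of all genes tested. Changes of more than 2-fold were confined to 6 of the 25, the falls of HSPG2 and TNC and the rises of TGM2, THBS1, LOXL4 and MMP7, and 12 of the 25 had a log2 fold change under 0.5 in size. The median log2 fold change was 0.14 over the 34 genes and 0.07 over all genes tested. Scaling shifted the split: under median-of-ratios scaling 10 genes were higher and 12 lower. In all, 20 of the 25 were called under every scaling tried, 10 in each direction, and without Control replicate 1 the count was 14 (6 higher and 8 lower).

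**Figure D1:**
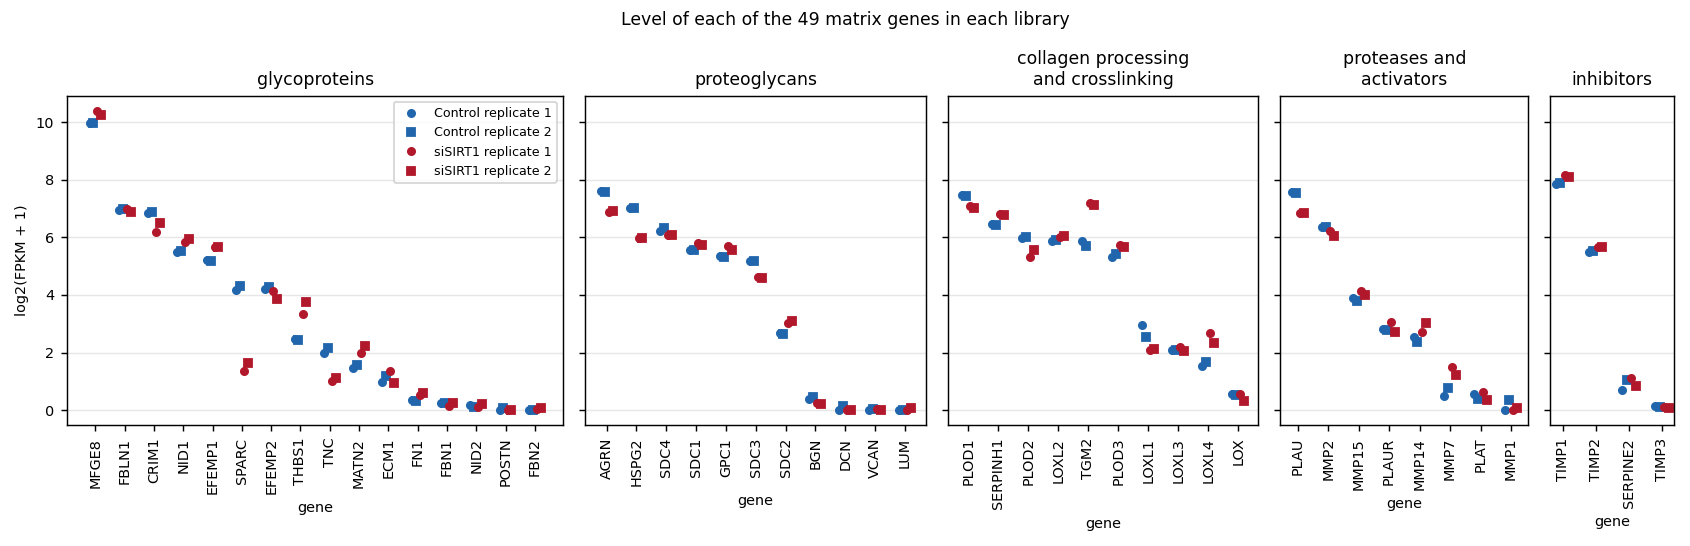
Level of each of the 49 matrix genes in each library, as log2(FPKM + 1), by functional group and ordered by mean level within it. Circles are replicate 1 and squares replicate 2, blue for Control and red for siSIRT1, and SPARC, TGM2 and THBS1 show the widest gaps between colours while 14 genes lie near the floor.

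**Figure D2:**
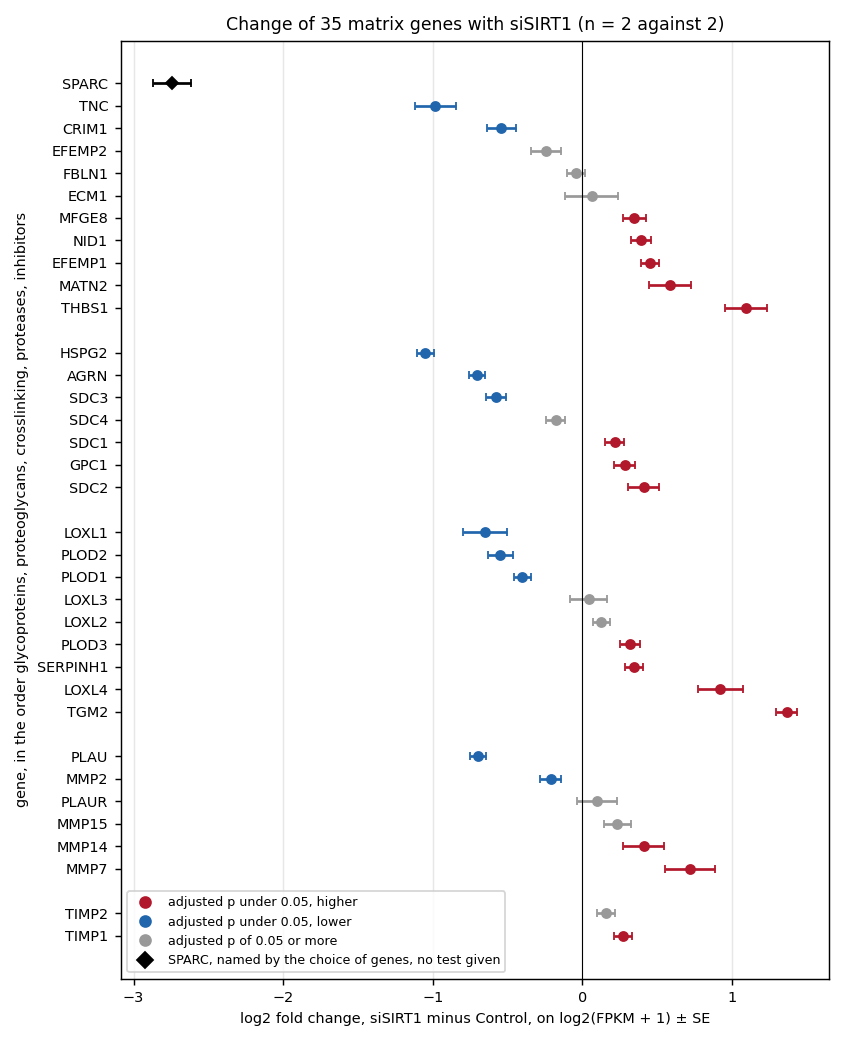
Log2 fold change of siSIRT1 minus Control on the log2(FPKM + 1) scale with its standard error, for the 35 genes that averaged 1 FPKM or more (n = 2 libraries per group). Red points are the 15 genes that rose, blue points the 10 that fell and grey points the 9 that did not pass the test, and the black diamond is SPARC at -2.74, shown without a test.

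Among the groups of function, proteoglycan transcripts were lower in sum in siSIRT1, which turned on AGRN and HSPG2 together. Transcripts of the 4 inhibitors among the 49 genes, almost all from TIMP1 and TIMP2, were higher in sum. The sums of the other 3 groups each lost or reversed their direction when 1 gene was left out. The 11 proteoglycans summed to 525 and 528 FPKM in Control against 384 and 378 FPKM in siSIRT1, and the 8 proteases and activators to 295 and 289 FPKM in Control against 222 and 208 FPKM in siSIRT1. The 16 glycoproteins summed to 1373 and 1380 FPKM in Control against 1691 and 1565 FPKM in siSIRT1. The 10 collagen processing and crosslinking genes went from 494 and 484 FPKM to 558 and 548 FPKM, and the 4 inhibitors from 273 and 281 FPKM to 339 and 322 FPKM. No group's summed level overlapped between Control and siSIRT1, and no test was made of these sums. Without MFGE8 the glycoproteins were lower in siSIRT1, at 335 and 351 FPKM against 365 and 372 FPKM in Control. That remainder holds SPARC, whose fall was named in choosing the genes, and with SPARC left out as well the sums overlapped. Without TGM2 the crosslinking group was lower too, at 414 and 409 FPKM against 436 and 433 FPKM. With PLOD1 left out as well, the crosslinking sum was higher in siSIRT1. The proteases without PLAU overlapped, at 106 and 94.9 FPKM in siSIRT1 against 107 and 105 FPKM in Control. Proteoglycans kept their direction without AGRN (330 and 336 FPKM to 266 and 259 FPKM) or without HSPG2 (396 and 398 FPKM to 322 and 315 FPKM). With both left out their sums overlapped, and 3 of the 7 proteoglycans tested rose. Without TIMP1 the inhibitors kept their direction (45.1 and 46.0 FPKM to 51.0 and 50.8 FPKM). That remainder was almost all TIMP2, at 44.4 and 44.8 FPKM in Control against 49.8 and 50.0 FPKM in siSIRT1, which did not pass the test. All 49 genes together took 0.736% and 0.746% of the library's summed FPKM in Control and 0.749% and 0.740% in siSIRT1, so the share of matrix transcripts as a whole overlapped between the groups while its make-up differed. MFGE8 held 34.1% and 34.0% of the 49 genes' summed FPKM in Control and 42.5% and 40.2% in siSIRT1. Without MFGE8, the sum over the 49 genes was 1951 and 1954 FPKM in Control against 1838 and 1807 FPKM in siSIRT1.

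**Figure D3:**
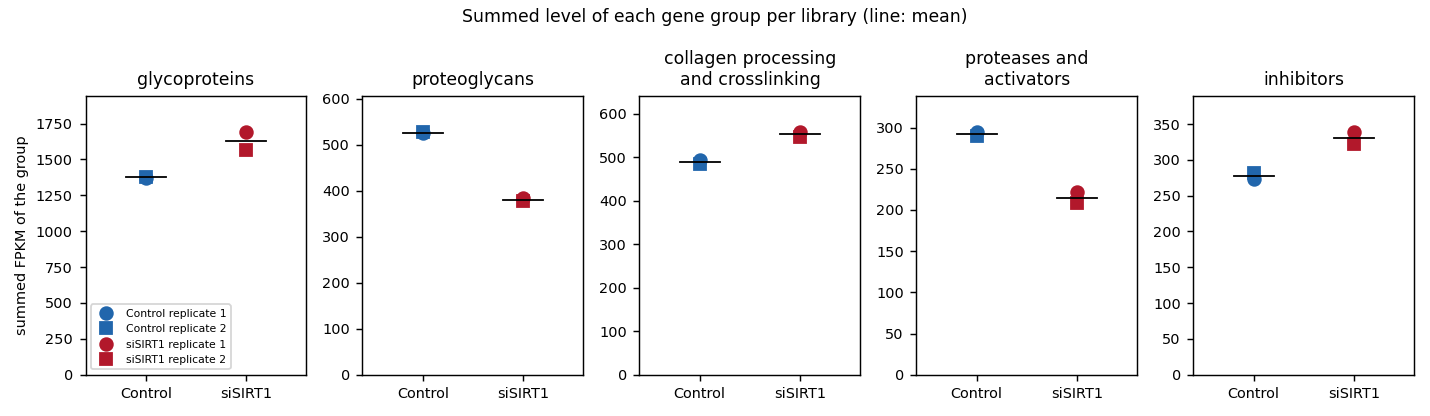
Summed FPKM of the genes of each functional group in each library, on axes that start at 0, with the mean as a line. Proteoglycans and proteases lie lower in both siSIRT1 libraries and the other 3 groups lie higher, but without MFGE8 the glycoprotein sum is lower in siSIRT1 (335 and 351 FPKM), without TGM2 the crosslinking sum is lower (414 and 409 FPKM), and without PLAU the protease sums overlap. The proteoglycan sums overlap too without AGRN and HSPG2 together, and the glycoprotein sums without MFGE8 and SPARC together. Without TGM2 and PLOD1 together the crosslinking sum is higher in siSIRT1.

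SPARC, a secreted calcium-binding glycoprotein that binds collagen and loosens cell attachment, showed the widest difference of the 35 genes over the filter. It was at 17.1 and 18.9 FPKM in Control (replicates 1 and 2, the order used throughout) against 1.58 and 2.12 FPKM in siSIRT1. Both siSIRT1 libraries were far below both Control libraries, and the mean fell from 18.0 ± 1.30 to 1.85 ± 0.38 FPKM (SD, n = 2), 10.3% of Control. COL1A1, the main chain of type I collagen, ran the other way, from 18.8 and 18.2 FPKM in Control to 131 and 126 FPKM in siSIRT1, 6.97-fold higher. At similar levels in Control, these genes were separated by a wide margin in siSIRT1. Both were named in choosing the genes, so no test is given for them. SPARC is on the minus strand of chromosome 5 (chr5:151040657-151066476 in GRCh37) with 10 exons in its canonical transcript.

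Of the other 10 glycoproteins tested, 5 rose, 2 fell and 3 did not pass the test. TNC, tenascin C, a large glycoprotein of remodelling tissue and tumour stroma, was at 2.92 and 3.42 FPKM in Control against 1.03 and 1.18 FPKM in siSIRT1. It fell to 34.9% of Control (log2 fold change -0.98 ± 0.14 SE, adjusted p = 8.57e-04), with both siSIRT1 libraries below both Controls. THBS1, thrombospondin 1, which activates latent TGF-beta and restrains angiogenesis, was at 4.60 and 4.37 FPKM in Control against 9.16 and 12.5 FPKM in siSIRT1. It rose 2.42-fold (log2 fold change 1.10 ± 0.14 SE, adjusted p = 5.95e-04), and the siSIRT1 libraries differed from each other by more than the Controls did. SPARC, TNC and THBS1 are all classed as matricellular proteins, which act on cells more than they build structure, and here they moved in different directions.

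MFGE8, lactadherin, a secreted protein that bridges dying cells to phagocytes through integrins, was the most abundant of the 49 genes, at 1008 and 1008 FPKM in Control against 1356 and 1214 FPKM in siSIRT1. It rose 1.27-fold (log2 fold change 0.35, adjusted p = 0.00873), but the call was lost without Control replicate 1 (adjusted p = 0.190) or Control replicate 2 (0.186), under median-of-ratios scaling (0.0760) and without the filter on low values (0.0541), and its log2 fold change was 0.22 under quantile normalization. EFEMP1, a fibulin that binds elastic fibre components, was at 36.5 and 35.2 FPKM in Control against 49.6 and 49.2 FPKM in siSIRT1 and rose with little spread (log2 fold change 0.45, adjusted p = 7.95e-04). MATN2, a matrilin that links matrix filaments, went from 1.73 and 1.94 FPKM to 2.91 and 3.63 FPKM (log2 fold change 0.59, adjusted p = 0.0110), and was not called without Control replicate 1 (adjusted p = 0.0666). CRIM1, a membrane-anchored protein that binds bone morphogenetic proteins, fell from 116 and 118 FPKM to 71.5 and 89.3 FPKM (log2 fold change -0.54, adjusted p = 0.00271), and was the glycoprotein gene with the widest gap between the siSIRT1 replicates in FPKM after MFGE8.

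The remaining glycoproteins were level or nearly absent. FBLN1, fibulin 1, was at 124 and 125 FPKM in Control against 125 and 116 FPKM in siSIRT1, with overlapping groups (log2 fold change -0.05, adjusted p = 0.587). ECM1, at 0.93 to 1.57 FPKM, also overlapped (log2 fold change 0.06, adjusted p = 0.813). EFEMP2, a fibulin needed for elastic fibre assembly, was at 17.4 and 18.4 FPKM in Control against 16.5 and 13.5 FPKM in siSIRT1 and did not pass (log2 fold change -0.24, adjusted p = 0.0927), though it did without siSIRT1 replicate 1 (adjusted p = 0.0181) and under 3 of the 4 scalings. FN1, fibronectin, the best-known glycoprotein of stromal matrix, was below the filter at 0.27 and 0.24 FPKM in Control against 0.44 and 0.50 FPKM in siSIRT1, at most 38 reads in a library. FBN1, FBN2, POSTN and NID2, which encode fibrillins, periostin and nidogen 2, stayed at 0.20 FPKM or less in every library. FBN2 was listed at 0 in both Controls and at 0.03 and 0.04 FPKM in siSIRT1, at most 4 reads.

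Basement membrane genes moved apart. HSPG2, which encodes perlecan, the large heparan sulfate proteoglycan of basement membranes, was at 129 and 130 FPKM in Control against 61.5 and 62.8 FPKM in siSIRT1. Its groups lay far apart relative to their spread, and it fell to 47.9% of Control (log2 fold change -1.05 ± 0.06 SE, adjusted p = 8.55e-06). The gene spans chr1:22148737-22263803 on the minus strand (GRCh37), with 97 exons. Its exons share 1659 bases with LDLRAD2 on the opposite strand, which was at 67.9 and 68.6 FPKM in Control against 39.3 and 34.9 FPKM in siSIRT1, and whether the counting used strand is not stated, so reads in that stretch cannot be told apart. AGRN, agrin, a second basement membrane proteoglycan that also organises the neuromuscular junction, fell from 195 and 191 FPKM to 117 and 119 FPKM (log2 fold change -0.70 ± 0.06 SE, adjusted p = 5.71e-05). NID1, nidogen 1, the glycoprotein that joins laminin to type IV collagen, instead rose from 43.6 and 45.2 FPKM to 56.0 and 61.2 FPKM (log2 fold change 0.39, adjusted p = 0.00251). The order AGRN, HSPG2, NID1 held in both groups, but in siSIRT1 the lowest HSPG2 library (61.5 FPKM) and the highest NID1 library (61.2 FPKM) were almost level.

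The 4 syndecans, transmembrane heparan sulfate proteoglycans that act as co-receptors for growth factors and matrix, kept the order SDC4, SDC1, SDC3, SDC2 in both groups. SDC3 was at 35.5 and 35.3 FPKM in Control against 23.8 and 23.0 FPKM in siSIRT1, and fell (log2 fold change -0.58 ± 0.07 SE, adjusted p = 3.39e-04). SDC2 rose from 5.35 and 5.26 FPKM to 7.17 and 7.57 FPKM (log2 fold change 0.41, adjusted p = 0.0145), a call lost without Control replicate 1 (adjusted p = 0.0814) or Control replicate 2 (0.0937). SDC1 rose from 46.6 and 46.0 FPKM to 55.3 and 52.4 FPKM (log2 fold change 0.21, adjusted p = 0.0255), but it passed under none of the 4 other scalings (adjusted p 0.0649 to 0.182), where its log2 fold change fell to 0.13 at the lowest, nor without the trend in the variance (0.0882), nor without Control replicate 1 (0.155), Control replicate 2 (0.195) or siSIRT1 replicate 1 (0.0579). SDC4 stood at 73.1 and 80.0 FPKM in Control against 67.6 and 67.2 FPKM in siSIRT1 without passing (log2 fold change -0.18, adjusted p = 0.0583), and it passed under all 4 other scalings (adjusted p 0.0160 to 0.0198). The syndecans differed in direction, with SDC3 the only one of the 4 called in every setting and with each library left out.

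GPC1, glypican 1, a heparan sulfate proteoglycan held by a lipid anchor and often raised in pancreatic cancer, was at 39.9 and 39.2 FPKM in Control against 50.5 and 46.1 FPKM in siSIRT1. It rose (log2 fold change 0.28, adjusted p = 0.0119), a call lost under median-of-ratios scaling (adjusted p = 0.0750), without the trend in the variance (0.0506) and without Control replicate 1 (0.0732) or Control replicate 2 (0.0993). The small leucine-rich proteoglycans of stroma were nearly absent. BGN, biglycan, was at 0.30 and 0.36 FPKM in Control against 0.20 and 0.15 FPKM in siSIRT1, at most 7 reads, and DCN, LUM and VCAN, which encode decorin, lumican and the large proteoglycan versican, stayed at 0.10 FPKM or less. Of the 7 proteoglycan genes tested, 3 rose, 3 fell and 1 did not pass.

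**Figure D4:**
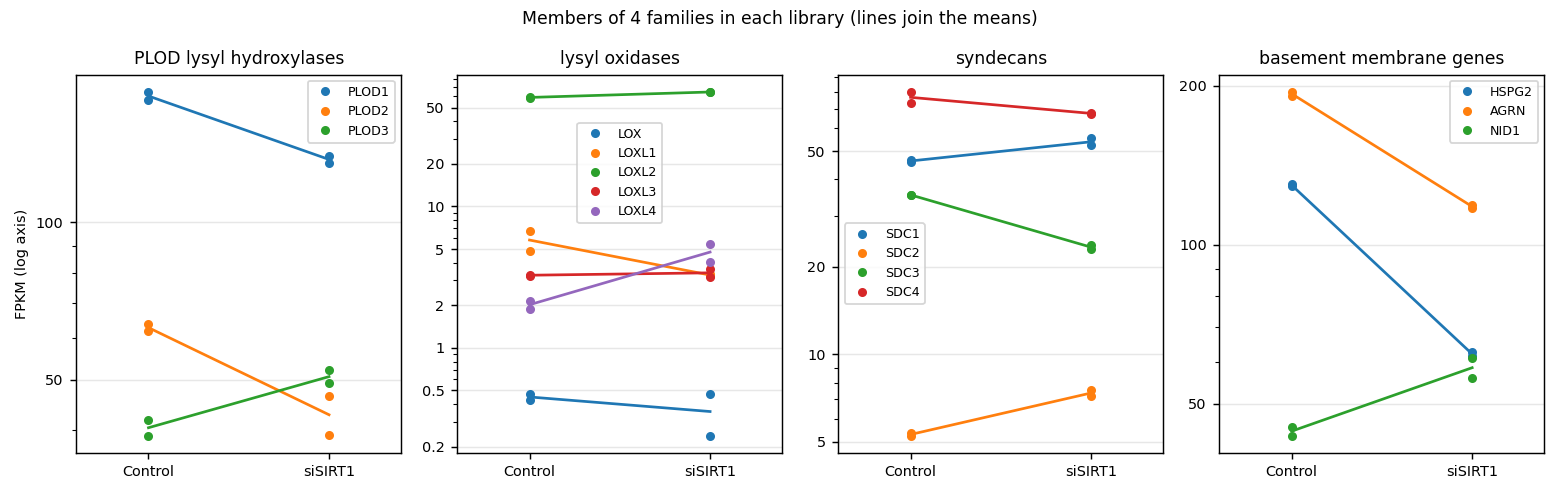
FPKM of the members of 4 families in each library, on log axes, with lines joining the group means. PLOD2 and PLOD3 change places between Control and siSIRT1, LOXL4 passes LOXL1 and LOXL3, the syndecans keep their order and HSPG2 comes close to NID1.

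Among the genes that process and crosslink collagen, 4 of 9 tested rose, 3 fell and 2 did not pass. TGM2, tissue transglutaminase, which joins matrix proteins through glutamine and lysine side chains, was at 57.5 and 51.2 FPKM in Control against 144 and 139 FPKM in siSIRT1. It rose 2.60-fold, from 54.4 ± 4.41 to 141 ± 3.87 FPKM (SD, n = 2, log2 fold change 1.37 ± 0.07 SE, adjusted p = 6.51e-06), the largest rise of the 34 genes on the log2(FPKM + 1) scale, although the ratio of mean FPKM was larger for the low gene MMP7, at 2.78. The gene lies at chr20:36755787-36793672 on the minus strand (GRCh37). In Control it was below PLOD1, PLOD2, SERPINH1 and LOXL2, and in siSIRT1 both of its libraries were above every other gene of the group, PLOD1 included at 134 and 130 FPKM.

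The lysyl hydroxylases, which hydroxylate collagen lysines before crosslinking, moved in opposite directions. PLOD1, the most abundant, fell from 178 and 171 FPKM to 134 and 130 FPKM (log2 fold change -0.40 ± 0.06 SE, adjusted p = 0.00101). PLOD2, whose product favours stable crosslinks in fibrotic tissue, fell from 62.0 and 63.8 FPKM to 39.1 and 46.5 FPKM (log2 fold change -0.55 ± 0.08 SE, adjusted p = 0.00137). PLOD3, which also adds sugars to hydroxylysine, rose from 39.1 and 41.8 FPKM to 52.1 and 49.3 FPKM (log2 fold change 0.32, adjusted p = 0.00634), but was not called without Control replicate 1 (adjusted p = 0.0889). In Control both PLOD2 libraries were above both PLOD3 libraries, and in siSIRT1 both were below. SERPINH1, the collagen chaperone HSP47, rose from 86.8 and 85.4 FPKM to 112 and 108 FPKM (log2 fold change 0.34 ± 0.06 SE, adjusted p = 0.00201).

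The lysyl oxidases, copper enzymes that start the crosslinks of collagen and elastin, were dominated by LOXL2 in every library. LOXL2 was at 58.3 and 59.7 FPKM in Control against 64.2 and 64.8 FPKM in siSIRT1 and did not pass (log2 fold change 0.13, adjusted p = 0.123). LOXL4 rose from 1.89 and 2.15 FPKM to 5.45 and 4.07 FPKM (log2 fold change 0.92 ± 0.15 SE, adjusted p = 0.00176). LOXL1 fell from 6.71 and 4.87 FPKM to 3.22 and 3.33 FPKM (log2 fold change -0.65, adjusted p = 0.00857), though without Control replicate 1, its highest library, the log2 fold change was -0.46 and the adjusted p 0.0854, and without the filter on low values the adjusted p was 0.0589. LOXL1 and LOXL4 exchanged rank, LOXL1 above LOXL4 in both Controls and below it in both siSIRT1 libraries. LOXL3 stayed at 3.18 to 3.61 FPKM with overlapping groups (log2 fold change 0.04, adjusted p = 0.817), and its exons share 596 bases with HTRA2 on the opposite strand. LOX itself was below the filter at 0.24 to 0.47 FPKM.

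Of the 6 proteases and activators tested, 2 rose, 2 fell and 2 did not pass, and the most abundant fell. PLAU, urokinase, which turns plasminogen into plasmin at the cell surface, was at 188 and 184 FPKM in Control against 116 and 113 FPKM in siSIRT1. The libraries of each group were close together and the groups far apart, and PLAU fell to 61.5% of Control (log2 fold change -0.70 ± 0.06 SE, adjusted p = 6.07e-05). PLAUR, its receptor, was at 5.98 and 5.84 FPKM in Control against 7.33 and 5.57 FPKM in siSIRT1, with overlapping groups (log2 fold change 0.10, adjusted p = 0.598). PLAT, tissue plasminogen activator, was below the filter at 0.28 to 0.55 FPKM. MMP2, the gelatinase A gene, fell from 81.5 and 80.9 FPKM to 74.5 and 65.6 FPKM (log2 fold change -0.21, adjusted p = 0.0453). That call was lost without the filter on low values (adjusted p = 0.114), without the trend in the variance (0.130), and without Control replicate 1 (0.213), Control replicate 2 (0.194) or siSIRT1 replicate 2 (0.108, log2 fold change -0.12).

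The membrane-type metalloproteinases and matrilysin lay lower. MMP7, matrilysin, was at 0.42 and 0.72 FPKM in Control against 1.82 and 1.35 FPKM in siSIRT1, at most 17 reads in a library. It rose (log2 fold change 0.72, adjusted p = 0.00954), with the call lost without Control replicate 1 (adjusted p = 0.0604) or siSIRT1 replicate 1 (0.0567), and its log2 fold change was 1.35 with a pseudocount of 0.1. MMP14, the membrane-bound activator of pro-MMP2, was at 4.77 and 4.17 FPKM in Control against 5.48 and 7.11 FPKM in siSIRT1. It passed narrowly (log2 fold change 0.41, adjusted p = 0.0464) and was not called under any of the 4 other scalings (adjusted p 0.0580 to 0.101), without the filter on low values (0.135), without the trend in the variance (0.0583), or without Control replicate 1 (0.0758), Control replicate 2 (0.225) or siSIRT1 replicate 2 (0.183, log2 fold change 0.25). MMP15, at 13.8 and 12.9 FPKM in Control against 16.8 and 14.9 FPKM in siSIRT1, did not pass (log2 fold change 0.23, adjusted p = 0.0758), but did without siSIRT1 replicate 2 (0.0373). MMP1, interstitial collagenase, was at 0.28 FPKM or less, at most 5 reads.

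Of the inhibitors, TIMP1, which blocks most metalloproteinases, was the most abundant, at 228 and 235 FPKM in Control against 288 and 271 FPKM in siSIRT1. It rose (log2 fold change 0.27, adjusted p = 0.00833), a call lost under median-of-ratios scaling (adjusted p = 0.0813) and without Control replicate 1 (0.158) or Control replicate 2 (0.0979). TIMP2, which both inhibits MMP2 and takes part in its activation by MMP14, was at 44.4 and 44.8 FPKM in Control against 49.8 and 50.0 FPKM in siSIRT1, with groups that did not overlap (log2 fold change 0.16, adjusted p = 0.0691). TIMP3, a matrix-bound inhibitor, was at 0.06 to 0.11 FPKM, and SERPINE2, protease nexin 1, at 0.63 and 1.08 FPKM in Control against 1.18 and 0.78 FPKM in siSIRT1. The groups of SERPINE2 overlapped.

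The 14 genes below the filter stayed at or under 1.18 FPKM in every library, and 9 of them had fewer than 10 estimated reads in each. Their groups did not overlap for 4, FN1, FBN2, BGN and TIMP3, beside 33.8% of the 4262 genes below the filter that were above 0 in a library. Without the filter, the log2 fold change of FN1 was 0.23 (adjusted p = 0.0556), and BGN did not pass either (adjusted p = 0.0943). Differences in the others were not detectable at this depth.

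Of the 25 genes called, 14 were called in every setting in which they were tested and with each library left out: TGM2, THBS1, LOXL4, EFEMP1, NID1 and SERPINH1 among the rises, and HSPG2, TNC, AGRN, PLAU, SDC3, PLOD1, PLOD2 and CRIM1 among the falls. TNC and LOXL4 averaged under 5 FPKM and were not tested at that filter, which leaves 12 called in every setting run. Counting the settings with all 4 libraries alone, 18 were called wherever they were tested, 14 of them at the filter of 5 FPKM too. How many of all genes tested held in these ways, or under every scaling, was not counted. These counts therefore cannot be set against other genes. MMP7, past 2-fold, was not among the 14 that held without each library, nor were LOXL1 and MATN2, whereas the smaller changes of SERPINH1, NID1 and PLOD1 were.

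**Figure D5:**
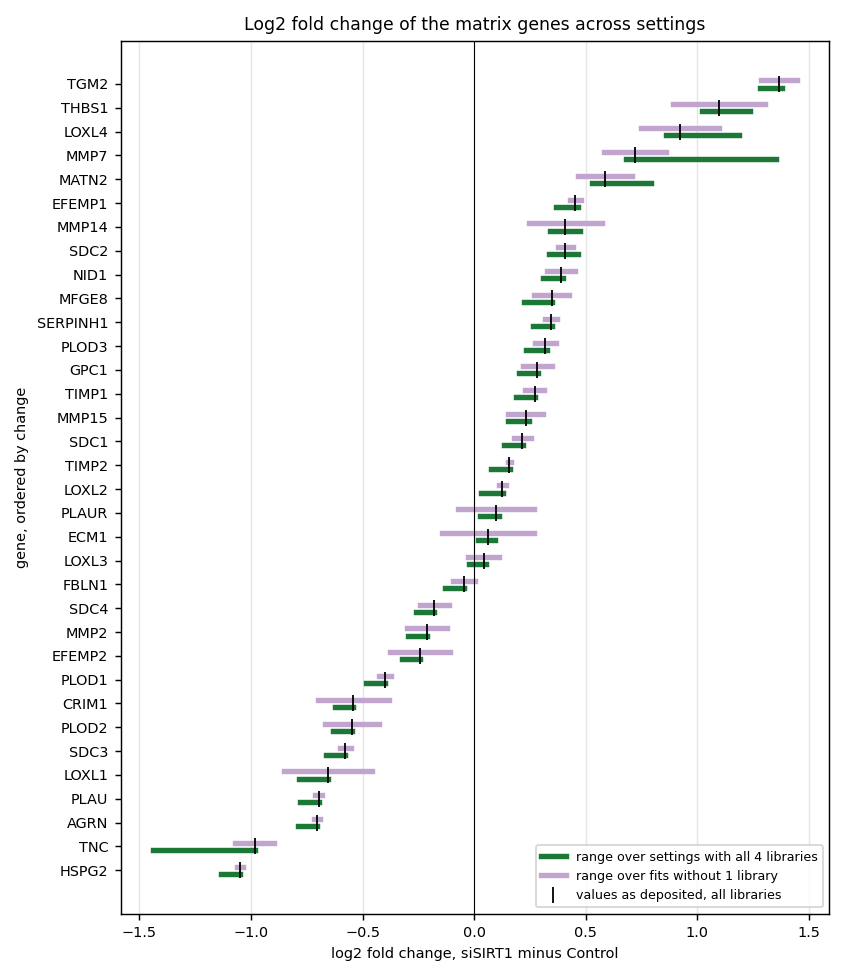
Log2 fold change of the 34 matrix genes other than SPARC, as deposited with all libraries (tick), over the settings with all 4 libraries (green) and over the fits without 1 library (purple). HSPG2 and TGM2 lie at the ends of the range at the deposited values, -1.05 and 1.37, and the widest range over settings with all libraries belongs to MMP7 and TNC.

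A list of 148 other matrix genes, again not collagens, gives the setting. The tables listed 134 of them, 74 were tested, and 44 of these (59.5%) passed, 19 higher and 25 lower, with a median log2 fold change of 0.00. On the log2(FPKM + 1) scale, which holds down low genes, the 3 largest rises were those of EDIL3, an integrin-binding relative of MFGE8, from 1.48 and 1.61 FPKM to 5.87 and 9.12 FPKM (log2 fold change 1.71, adjusted p = 2.23e-04), of IGFBP7, a secreted binding protein of insulin-like growth factors, and of P4HA2, a prolyl hydroxylase of collagen. IGFBP7 rose from 21.7 and 20.0 FPKM to 62.5 and 57.0 FPKM (log2 fold change 1.47, adjusted p = 6.51e-06), and P4HA2 from 17.8 and 17.4 FPKM to 32.7 and 31.6 FPKM (log2 fold change 0.84, adjusted p = 7.23e-05). By the ratio of mean FPKM, P4HA2 at 1.83 came after MATN3, ADAMTS1 and HYAL3, at 2.60, 2.45 and 2.09. CTSK and MMP25, at 1.88 and 1.84, were also ahead of P4HA2. These genes were named after their values were seen. Among the largest falls were those of HTRA1, a secreted serine protease, from 7.62 and 10.4 FPKM to 4.43 and 3.70 FPKM (log2 fold change -0.97, adjusted p = 0.00148), and of ADAM15, a membrane metalloproteinase, from 45.0 and 43.4 FPKM to 23.5 and 22.4 FPKM (log2 fold change -0.92, adjusted p = 3.75e-05). By mean FPKM the low gene PXDN fell further, to 30.8% of Control, against 45.0% for HTRA1 and 51.9% for ADAM15. PXDN too was named after its values were seen.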

How the data were processed

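RNA-seq of PANC-1 cells was given as 1 table per library, 2 Control and 2 siSIRT1, with groups and replicate numbers taken from the labels. The authors deposited FPKM values, rounded to 2 decimals, with isoforms pooled into genes. Per the labels, RNA was extracted with Trizol and libraries followed the sequencing provider's standard protocol. The submitters' processing notes name Bowtie2, HISAT, RSEM and ChIPseeker without roles or versions, and the genome build, annotation and strand setting of the counting are not given in the sources used here. FPKM divides by the library's total, so abundant genes that change shift all others.

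Genes were matched by Entrez identifier to current RefSeq symbols (16846 of 16878). Transcript lengths, exon overlaps and 3′ UTRs came from GENCODE release 44 on GRCh37, and promoters from RefSeq GRCh38.p14. Depth was estimated from steps of 1 read in low values of 84 to 103 single-exon genes per library and is approximate.

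The test was limma 3.58.1 (R 4.3.3), run as lmFit and eBayes with a trend of the variance on the mean. Values were log2(FPKM + 1) of the 12191 genes that averaged 1 FPKM or more. P-values were two-sided and Benjamini-Hochberg adjusted over all of them, with a threshold of 0.05. Such fold changes understate those of low genes. Ratios and percentages of Control are of mean FPKM. The script was tested on simulated data. The 49 genes, the lists and the tests were chosen with earlier results of these data known. All 49 genes, SIRT1, COL1A1 and the 3 largest rises and falls called among the other matrix genes are named, except 1 fall that is not reported here, beside marker genes and LDLRAD2 and HTRA2, named for their overlap. SPARC and COL1A1 were in the fit, but they were named in the choice, so their p-values are not reported. Alternatives were a pseudocount of 0.1, other filters, 4 scalings, a replicate block, no variance trend and leaving out each library.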

Additional observations from a re-analysis of the deposited data

How the results depend on the processing

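The count of called matrix genes was 25 of 34 and stayed between 20 and 29 over the settings with all 4 libraries. The most came with the replicate number as a block (29, 17 higher and 12 lower, with EFEMP2, SDC4, MMP15 and TIMP2 gained at adjusted p 0.0430, 0.0186, 0.0367 and 0.0425 and no call lost) and the fewest with a mean of at least 5 FPKM (20 of 27 tested). Calls over all 12191 genes tested rose as well, from 4521 to 5393 with the block. At a mean of at least 5 FPKM, 3873 of 8784 genes were called. Same-numbered libraries had deviations with a correlation of 0.12 in 2 pairs, so the numbers were not treated as a pairing. Leaving out 1 library gave 14 to 24 called, with 14 without Control replicate 1 and 18 without Control replicate 2, fits that hold 1 Control library assumed to vary as siSIRT1 does. For the 74 other matrix genes 34 to 48 were called over settings with all libraries and 35 to 41 without 1 library. Upper-quartile scaling was chosen after seeing the data. Scaling lowered the median log2 fold change of all genes from 0.07 to between 0.00 and 0.02. The SIRT1 log2 fold change kept its call throughout, at -2.02 to -1.90 without 1 library. Over the settings with all libraries, 274 values of single genes were stable, 19 lost and 11 gained a call. Stable meant the same direction and side of the threshold, or for SPARC a shift smaller than the SD within groups. Genes that changed sign were all uncalled: LOXL3 at -0.023 under median-of-ratios scaling, -0.0065 under equal FPKM sums and -0.018 under upper-quartile scaling, and, without 1 library, LOXL3 from -0.029 to 0.11, FBLN1 from -0.10 to 0.0038, ECM1 from -0.14 to 0.27 and PLAUR from -0.073 to 0.27. SPARC stood at -3.23 with a pseudocount of 0.1. The cause of these shifts was not tested. Depth limits the 14 genes below 1 FPKM on average, most of them with fewer than 10 reads.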
